A study of Mus musculus with 9 samples.

Results

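The interleukin-17 (IL-17) family was measured here as 10 genes, namely the ligands Il17a, Il17b, Il17c, Il17d and Il17f, the receptor chains Il17ra, Il17rc, Il17rd and Il17re, and Il23a, which encodes the subunit particular to IL-23. They were taken by gene name from the 34637 genes with deposited expression values, and all 10 were found. The RNA came from the back skin of male C57BL/6 mice aged 6 to 8 weeks, all of them sensitized on day 1 with 200 µL of 1% DNCB, a reactive hapten that causes contact allergy, and challenged with 100 µL of 0.5% DNCB between day 4 and day 21. The FJDHF group (n = 5) was fed the Fangji Dihuang formulation daily after day 7, and the Model group (n = 4) received water until the end on day 28. Skin without DNCB was not analysed here, so each comparison is between treated and untreated dermatitis. The table columns carry codes that the sources do not explain. FJDHF was assigned the 5 MR columns and Model the 4 MXL columns, because the numbers match and MX abbreviates the Chinese for model, and every direction below rests on that reading.

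IL-17A and IL-17F are secreted as dimers by T helper 17 cells, γδ T cells and innate lymphoid cells, and IL-23 from myeloid cells sustains those producers. In skin they act on keratinocytes and fibroblasts through a receptor of IL-17RA and IL-17RC, whose adaptor Act1 (Traf3ip2) leads to neutrophil-attracting chemokines and antimicrobial proteins. IL-17C comes from epithelium and signals through IL-17RA with IL-17RE, and IL-17RA also serves IL-25 together with IL-17RB.

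Il17a and Il17f lie near each other on chromosome 1, and their promoters are shown because these neighbouring ligands act through the same receptor. The 250 bases before each RefSeq start (GRCm38.p6) are given 5′ to 3′ on the gene's strand, with capitals for the TATA sequence TATAAA, searched on both strands and found on the gene's strand.
Il17a, chr1:20730655-20730904, plus strand: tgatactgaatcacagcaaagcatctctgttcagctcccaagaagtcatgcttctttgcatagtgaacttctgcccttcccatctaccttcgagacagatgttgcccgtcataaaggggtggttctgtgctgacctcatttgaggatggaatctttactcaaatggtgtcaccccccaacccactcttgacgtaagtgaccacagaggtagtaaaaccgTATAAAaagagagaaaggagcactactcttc
Il17f, chr1:20784271-20784520, minus strand: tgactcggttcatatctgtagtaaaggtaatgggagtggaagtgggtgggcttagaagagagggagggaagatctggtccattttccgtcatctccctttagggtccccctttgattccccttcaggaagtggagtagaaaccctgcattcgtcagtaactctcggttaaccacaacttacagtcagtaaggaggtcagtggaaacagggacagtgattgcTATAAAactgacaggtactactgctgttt
TATAAA began 31 bases before the start of Il17a and 29 bases before that of Il17f. Among 32851 RefSeq promoters of the same 250 bases, 12.4% held TATAAA on one strand or the other. A match of letters is a description of the window and not evidence of binding.

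Library depth was even, at 74648669 to 79474215 counts. Keratinocyte genes marked the tissue as skin, with all 7 basal and all 8 differentiated keratinocyte markers tested. Basal markers summed to 2076 to 5622 CPM (counts scaled to library size with TMM factors) in the MR and 1352 to 7117 CPM in the MXL libraries. Differentiated keratinocyte markers summed to 7361 to 14960 CPM in MR and 2885 to 8292 CPM in MXL. Of these, 7 of 8 were higher in FJDHF, with a median log2 fold change of 1.02 and none called by edgeR. An unadjusted p under 0.05 was found for 5, against 1.57% of all genes tested. Groups did not overlap in CPM for 2, against 0.514% of all genes tested. Fibroblast markers summed to 18560 to 32570 CPM in MR and 25550 to 46680 CPM in MXL, with 6 of 7 lower in FJDHF, a median of -0.42 and 1 with an unadjusted p under 0.05. All 12 T cell markers were measured, and their sum lay between 110.8 and 228.2 CPM in the MR libraries and between 123.8 and 191.9 CPM in the MXL libraries. Thy1 alone averaged 115.1 CPM in MR and 128.5 CPM in MXL, against 2.025 and 2.005 CPM for Cd3e, so the sum mostly followed Thy1. Of the 12, 9 were higher in FJDHF, with a median of 0.10. Some other differences belonged to single libraries. The 11 neutrophil markers tested summed to 532.7 CPM in MXL12 and to at most 152.8 CPM in any other library, and the 8 skeletal muscle markers ranged from 490.3 to 15100 CPM with the highest sum in MXL_3. Further differences were not confined to single libraries. Mmp8, a neutrophil marker, did not overlap between the groups. Its log2 fold change was -1.18 (edgeR unadjusted p = 0.00496), and -1.001 without MXL12. Of 8 dendritic and Langerhans cell markers, 7 were lower in FJDHF. Ccr7 among them was at -1.55 (edgeR unadjusted p = 0.0053), and -1.425 without MXL12. All 8 macrophage markers were higher, with a median of 0.27. None of these was called. In bulk skin, fewer cells of a type and less RNA per cell cannot be told apart.

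No member passed a test between FJDHF and Model. With edgeR's quasi-likelihood test no member had an adjusted p under 0.05, against 0 of all 20817 genes tested (0.00%). No member had an unadjusted p under 0.05, against 326 genes (1.57%), and no member had groups that did not overlap in CPM, against 107 genes (0.514%). Of the 10, 7 passed the filter on low counts, and Il17a, Il17b and Il17c did not. In an edgeR fit without that filter these 3 had unadjusted p-values of 0.316, 0.0685 and 0.178. DESeq2's Wald test called 2 of all genes and no member. Gene positions are given on GRCm38 (mm10).

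**Figure D1:**
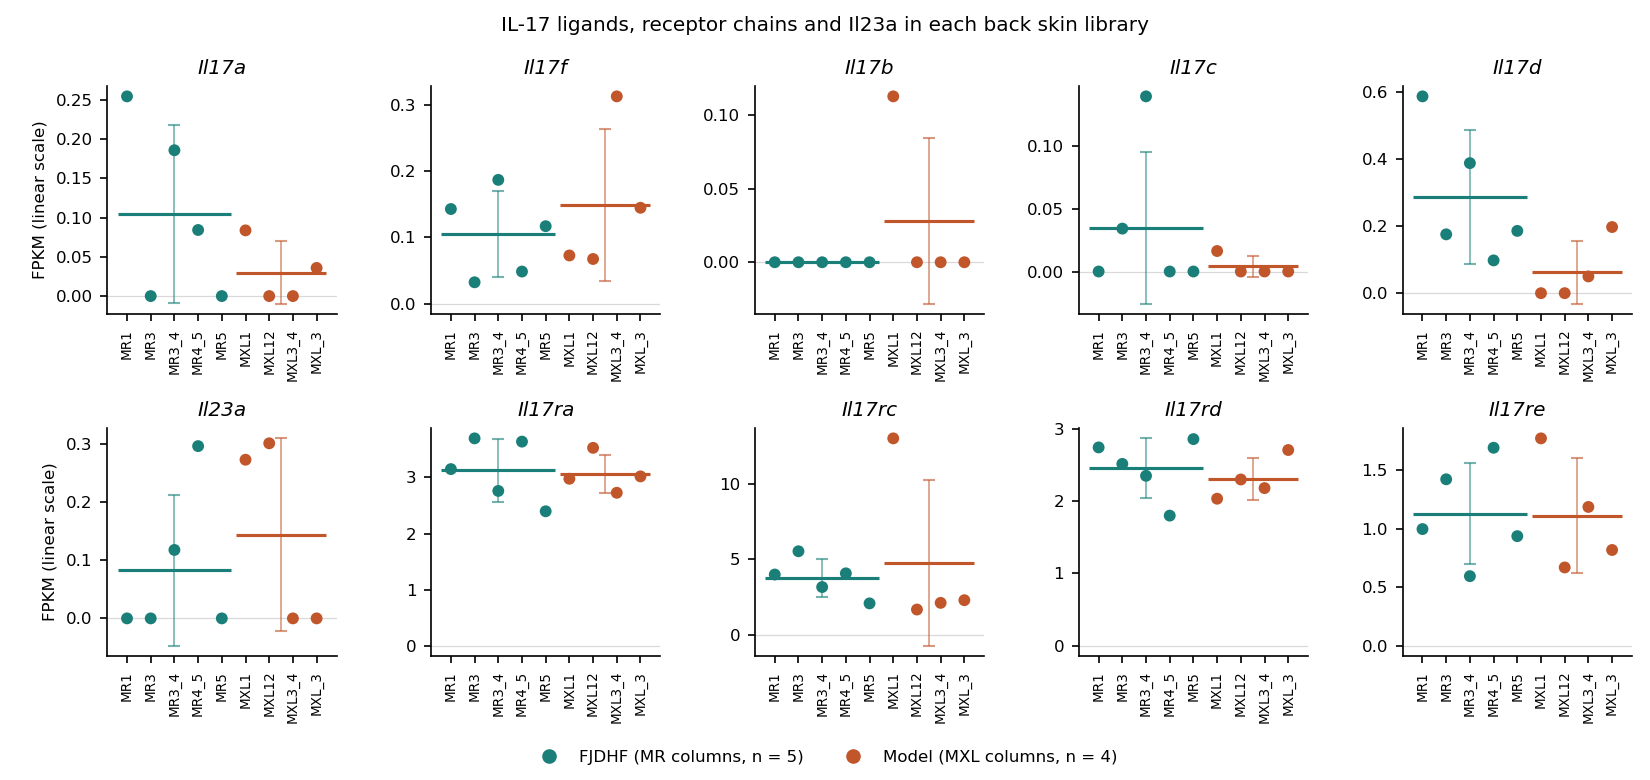
Deposited FPKM (linear scale, one axis per gene) of the 10 members in each of the 9 libraries, with MR (FJDHF, n = 5) and MXL (Model, n = 4) in separate colours, group means as horizontal lines and SD as error bars. The ligands and Il23a stay under 0.6 FPKM, all but Il17f with libraries at 0, the receptor chains are found in every library, and Il17rc reaches 12.99 FPKM in MXL1 alone.

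Il17a, the founding cytokine of the family (ENSMUSG00000025929, chr1:20730905-20734496, plus strand), was close to the limit of detection. It had 24 counts in MR1, 0 in MR3, 18 in MR3_4, 8 in MR4_5 and 0 in MR5, against 8 in MXL1, 0 in MXL12, 0 in MXL3_4 and 4 in MXL_3. The groups overlapped, with more than 3 counts in 3 of 5 MR and 2 of 4 MXL libraries, and the highest counts in MR1 and MR3_4. A library with 0 counts allows up to 3 counts, which is 0.0375 to 0.0415 CPM at these depths and covers counting error only. Mean levels were 0.134 ± 0.145 CPM (SD, n = 5) in MR and 0.0391 ± 0.0489 CPM (SD, n = 4) in MXL. The exact two-sided permutation test of log2(CPM + 0.5) gave p = 0.325, where the smallest p that it can give is 0.00794.

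Il17f, whose product pairs with IL-17A and uses the same receptor (ENSMUSG00000041872, chr1:20777146-20790585, minus strand), was above 3 counts in all 9 libraries. Its counts were 24, 6, 31, 9 and 20 in MR1, MR3, MR3_4, MR4_5 and MR5, and 13, 11, 53 and 25 in MXL1, MXL12, MXL3_4 and MXL_3. The highest count was in MXL3_4 and the lowest in MR3, and the groups overlapped. The log2 fold change of FJDHF over Model was -0.49 ± 0.66 (SE; edgeR adjusted p = 1), and it was 0.12 without MXL3_4. Il17a and Il17f did not follow each other in all libraries, since MXL3_4 had the highest Il17f count and 0 counts of Il17a.

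Il17d, a less studied ligand (ENSMUSG00000050222, chr14:57524777-57543166, plus strand), had the largest fitted difference among the members that passed the filter. Its counts were 60, 19, 40, 11 and 20 in MR1, MR3, MR3_4, MR4_5 and MR5, and 0, 0, 6 and 20 in MXL1, MXL12, MXL3_4 and MXL_3. All 5 MR libraries were above 3 counts, and 2 of 4 MXL libraries were, but MXL_3 lay within the MR range. Mean levels were 0.396 ± 0.272 CPM (SD, n = 5) in MR and 0.0885 ± 0.131 CPM (SD, n = 4) in MXL, a log2 fold change of 2.15 ± 1.13 (SE; edgeR unadjusted p = 0.0865, adjusted p = 1). The exact permutation test gave p = 0.0635. On log2(CPM + 0.5) the difference was 0.58, with a 95% interval of 0.07 to 1.09 from a limma fit whose adjusted p was 1. Unadjusted p-values were under 0.05 in the 3 limma fits (0.0154 to 0.0330) and in edgeR without MXL_3 (0.0118, log2 fold change 3.85), and not in the other fits. Without MR1 the log2 fold change was 1.73. Its GC content is 60.4%, and GC-rich genes differed between the libraries, as described for Il17rc. The part of GC content in the difference of Il17d was not tested.

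Il17c and Il17b were hardly present. Il17c, the epithelial ligand (ENSMUSG00000046108, chr8:122422020-122423639, plus strand), had 2 counts in MR3, 8 in MR3_4 and 1 in MXL1, and 0 in the other 6 libraries. Il17b (ENSMUSG00000024578, chr18:61684887-61692538, plus strand) had 9 counts in MXL1 and 0 in the other 8 libraries, and its exons overlap those of Gm38165 on the opposite strand, and whether the counting used strand is not given in the sources used here, so its counts are uncertain. Il17c exceeded 3 counts in MR3_4 only and Il17b in MXL1 only. The permutation test gave p = 0.563 for Il17c and p = 0.444 for Il17b. Il25, the remaining ligand of the family, had 4 counts in MR3_4 and 0 elsewhere.

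Il23a (ENSMUSG00000025383, chr10:128296139-128298752, minus strand) was at 0 counts in 5 libraries and at 22 or more in 4. It had 22 counts in MR3_4, 54 in MR4_5, 50 in MXL1 and 55 in MXL12, and 0 in MR1, MR3, MR5, MXL3_4 and MXL_3. Libraries with and without Il23a reads were thus found in both groups, 2 of 5 in MR and 2 of 4 in MXL. The log2 fold change was -0.79 ± 1.69 (SE; edgeR adjusted p = 1), and the permutation test gave p = 0.683. MXL12, which had the highest neutrophil marker sum, had 55 counts of Il23a, 11 of Il17f and 0 of Il17a.

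The receptor chains were much higher than the ligands. Summed over the 4 chains, FPKM lay between 8.18 in MXL12 and 19.8 in MXL1, whereas the 5 ligands together reached 0.0675 FPKM in MXL12 and 0.984 FPKM in MR1. The receptor sum was above the ligand sum in every library.

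Il17ra, the chain common to most IL-17 receptors (ENSMUSG00000002897, chr6:120463247-120487559, plus strand), had 29.0, 32.6, 26.2, 32.0 and 21.3 CPM in MR1, MR3, MR3_4, MR4_5 and MR5, and 26.5, 32.3, 25.3 and 28.7 CPM in MXL1, MXL12, MXL3_4 and MXL_3. The MXL values all lay within the MR range, and the highest library was 1.53-fold above the lowest. Group means were 28.2 ± 4.62 CPM (SD, n = 5) and 28.2 ± 3.08 CPM (SD, n = 4). The difference on log2(CPM + 0.5) was -0.01 with a 95% interval of -0.39 to 0.37 (limma), and the permutation test gave p = 0.944. This interval leaves out a 2-fold change in either direction.

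Il17rd, also known for restraining fibroblast growth factor signalling (ENSMUSG00000040717, chr14:27038941-27107286, plus strand), was as even. It had 32.1, 28.1, 28.3, 20.1 and 32.3 CPM in MR1, MR3, MR3_4, MR4_5 and MR5, and 23.0, 26.7, 25.7 and 32.7 CPM in MXL1, MXL12, MXL3_4 and MXL_3. The lowest value was in MR4_5 and the highest in MXL_3, a 1.63-fold range. The difference was 0.05 with a 95% interval of -0.36 to 0.46 (limma, log2 scale), and the permutation test gave p = 0.762.

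Il17re and Il17rc are neighbours on the plus strand of chromosome 6, with no shared exon. Il17re, the partner chain for IL-17C (ENSMUSG00000043088, chr6:113458484-113470758), had 6.25, 8.48, 3.84, 10.1 and 5.66 CPM in MR1, MR3, MR3_4, MR4_5 and MR5, and 10.7, 4.21, 7.48 and 5.28 CPM in MXL1, MXL12, MXL3_4 and MXL_3. High and low libraries occurred in both groups, with MXL1 highest and MR3_4 lowest. The difference was 0.0012 with a 95% interval of -0.75 to 0.75 (limma, log2 scale), and the permutation test gave p = 1.

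Il17rc, the chain that joins IL-17RA for IL-17A and IL-17F (ENSMUSG00000030281, chr6:113471427-113483140), varied most among the receptor chains. It had 11.4, 15.0, 9.33, 11.1 and 5.75 CPM in MR1, MR3, MR3_4, MR4_5 and MR5, and 35.6, 4.80, 6.13 and 6.79 CPM in MXL1, MXL12, MXL3_4 and MXL_3. MXL1 was the highest of the 9 libraries and MXL12 the lowest, 7.42-fold apart, and the other MXL values lay at the low end of the MR range. The log2 fold change was -0.34 ± 0.58 (SE; edgeR adjusted p = 1). Without MXL1 it was 0.83 (edgeR unadjusted p = 0.0268, adjusted p = 0.983), so the direction rested on that library. Without MXL1 the exact permutation test on the 5 MR and 3 MXL libraries gave p = 0.107. The mean of log2(CPM + 0.5) was already higher in MR, at 3.40 against 3.29 in MXL, a difference of 0.11 with a 95% interval of -1.05 to 1.26 (limma).

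The level of GC-rich genes moved with Il17rc. Its longest coding transcript has a GC content of 62.0%, against 56.1% for Il17re, 52.6% for Il17ra and 50.1% for Il17rd. In the fifth of 14160 coding genes with the highest GC content (over 55.6%), the median log2 deviation from each gene's median was 0.59 in MXL1 and 0.46 in MR3, but -0.76 in MXL12, -0.76 in MR5 and -0.36 in MXL3_4. Il17rc itself deviated by 1.88 in MXL1, 0.66 in MR3, -0.89 in MXL12, -0.65 in MR5 and -0.57 in MXL3_4. Relative to the 500 genes nearest to it in GC content, the SD of Il17rc over the 9 libraries was 0.40 on the log2 scale instead of 0.851, and MXL1 was the highest at 0.94 above the median. The difference between the groups was then 0.02 with an exact permutation p of 0.984. Without MXL1, after the same centring, mean levels were 3.44 in MR and 3.12 in MXL, a difference of 0.32 (exact permutation p = 0.0357, unadjusted, where 0.0179 is the smallest p possible). The part of GC content in the levels of Il17rc was not tested further.

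**Figure D2:**
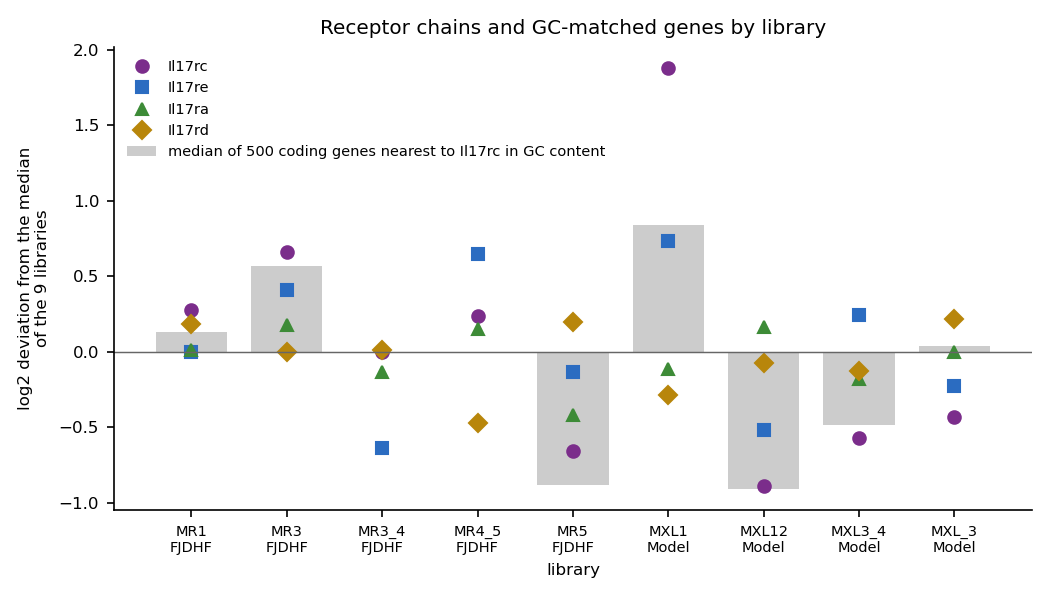
Log2 deviation of the 4 receptor chains from their own median over the 9 libraries (points), and the median deviation of the 500 coding genes nearest to Il17rc in GC content (grey bars). Il17rc is high where the bars are high (MXL1, MR3) and low where they are low (MXL12, MR5, MXL3_4), whereas Il17ra and Il17rd stay within 0.471 of 0, and MXL_3 has a bar of 0.04 and Il17rc at -0.43.

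The ratio of Il17rc to Il17ra, the pair that forms the receptor for IL-17A, was 1.27, 1.5, 1.15, 1.12 and 0.873 on FPKM in MR1, MR3, MR3_4, MR4_5 and MR5. It was 4.36, 0.478, 0.780 and 0.763 in MXL1, MXL12, MXL3_4 and MXL_3. The MXL libraries other than MXL1 thus lay under every MR library, and MXL1 lay above all. MXL1 was set aside after its value was seen, and the share of gene pairs with a like split was not counted. Il17rc and Il17ra differ in GC content (62.0% and 52.6%), and the part of GC content in the ratio was not tested. MXL1 and MR3 had the highest values and MXL12 the lowest, both of the ratio and of Il17rc itself.

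Ordered by mean FPKM over the 9 libraries, Il17rc stood first (4.22 ± 3.51, SD), followed by Il17ra (3.10 ± 0.448), Il17rd (2.39 ± 0.352) and Il17re (1.12 ± 0.428). Without MXL1 the means of Il17rc and Il17ra were 3.12 and 3.11 FPKM, and Il17rc exceeded Il17ra in 5 of 9 libraries. Il17ra exceeded Il17rd in 8 of 9 libraries with overlapping ranges, and Il17rd exceeded Il17re in 9 of 9 with ranges apart. After a gap came Il17d (0.187 ± 0.193), Il17f (0.125 ± 0.0869), Il23a (0.110 ± 0.140), Il17a (0.0715 ± 0.0925), Il17c (0.0210 ± 0.0458) and Il17b (0.0125 ± 0.0376), and every pair of neighbours among these 6 overlapped in range. The gap itself was seen in every library, as Il17re was above Il17d in 9 of 9. Deposited FPKM follow the summed exon length of each gene. With CPM per kilobase of the longest coding transcript, Il17d and Il17f changed places and the order was otherwise the same.

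**Figure D3:**
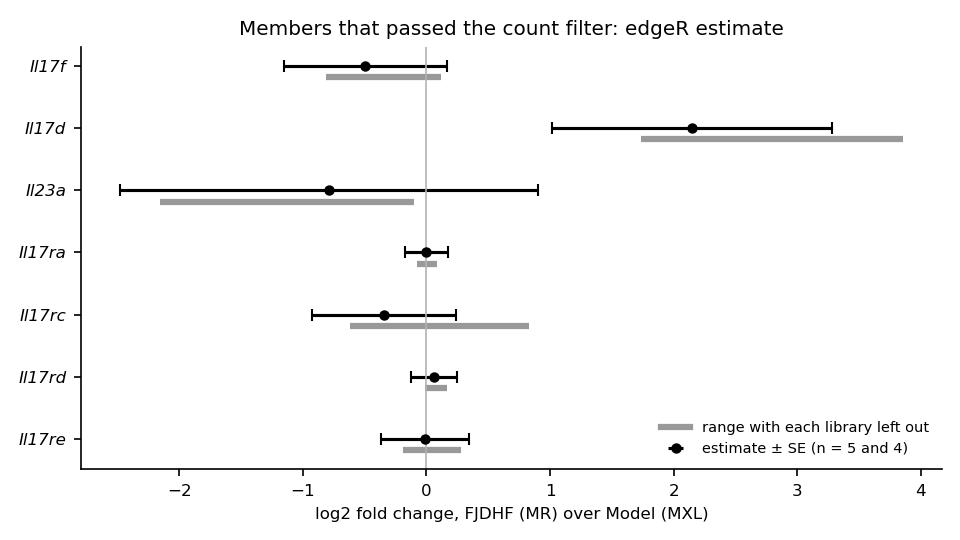
Log2 fold change of FJDHF over Model from edgeR for the 7 members that passed the count filter (points, with SE as bars; n = 5 and 4), and the range of estimates on leaving out 1 library at a time (grey). Il17ra, Il17rd and Il17re sit at 0.00 to 0.06 in size, Il17d at 2.15, and leaving out MXL1 moves Il17rc from -0.34 to 0.83.

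As a description of likeness, the genes with the highest Pearson correlation to each of the 7 members tested over the 9 libraries (log2(CPM + 0.5)) were listed. The points share libraries and their GC differences. For Il17rc these were Mroh6 (r = 0.996), Pdlim2 (r = 0.984) and Fibp (r = 0.980), with GC contents of 62.4%, 58.3% and 55.5%. Il17re was most like Mtor (r = 0.984) and Sfxn2 (r = 0.967). Il17ra was most like Cfap126 (r = 0.911), E2f7 (r = 0.902) and Gm14168 (r = 0.895), and Il17rd was most like Map3k12 (r = 0.957), Gm14461 (r = 0.918) and Pex5l (r = 0.914). Among the low members, Il17d was most like Prdm6 (r = 0.931), Gabrr2 (r = 0.930) and Bbs2 (r = 0.929). Il17f was most like Gm31282 (r = 0.938), Ptprr (r = 0.931) and Gm42933 (r = 0.924), and Il23a was most like Ceacam12 (r = 0.949), Gm49960 (r = 0.921) and Sftpd (r = 0.902). The neighbours Il17rc and Il17re had r = 0.687 with each other, and Il17rc and Il17ra had r = 0.138.

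Partners of the family were likewise without a call. Of 13 partner genes of IL-17 and IL-23, 12 were tested, 5 had higher and 7 lower estimates in FJDHF, none had an unadjusted p under 0.05, and the median log2 fold change was -0.22. Over all genes tested, 9186 estimates were higher and 11631 lower, with a median of -0.03. Without MXL12 the partner genes had 3 higher and 9 lower estimates and a median of -0.063. Il17rb, the receptor chain for IL-25 and IL-17B, had 4.07 ± 1.31 CPM (SD, n = 5) in MR and 2.66 ± 0.843 CPM (SD, n = 4) in MXL, with a log2 fold change of 0.61 ± 0.32 (SE; edgeR unadjusted p = 0.0879). The most abundant partners were the signalling genes Jak2 (log2 fold change -0.36, and -0.072 without MXL12), Stat3 (0.04) and Tyk2 (-0.10, and -0.32 without MXL12).

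Of 19 genes of IL-17-producing lymphocytes, 18 were tested, with 6 higher and 12 lower estimates, a median of -0.45, and 2 lower with an unadjusted p under 0.05, against 1.57% of all genes in either direction. Ccr6, the receptor that guides these cells to skin, was at 0.990 ± 0.596 CPM in MR (SD, n = 5) and at 1.98 ± 0.315 CPM in MXL (SD, n = 4) (log2 fold change -0.999 ± 0.428, SE; edgeR unadjusted p = 0.0410, adjusted p = 1), and the exact permutation test gave p = 0.0397. Trdv4, a variable segment of the δ T cell receptor chain, was at 1.53 ± 0.921 CPM in MR (SD, n = 5) and at 3.67 ± 1.56 CPM in MXL (SD, n = 4) (log2 fold change -1.26 ± 0.50, SE; edgeR unadjusted p = 0.0301, adjusted p = 1), and the exact permutation test gave p = 0.0635. Neither keeps its groups apart, and neither passed the adjusted test. The most abundant members of the list, Maf, Il1r1 and Rora, had log2 fold changes of 0.11, -0.49 and 0.22, which were 0.31, -0.021 and 0.22 without MXL12. Which cells of the skin their RNA came from was not tested. The γ constant regions Trgc1, Trgc2 and Trgc4, members of a gene family whose shared reads may be split in counting, had log2 fold changes of -0.73, -0.51 and -0.42. Il22 had 8 counts in MXL12 and 0 in the other libraries. Without MXL12 the list had 3 higher and 15 lower estimates and a median of -0.20, and none had an unadjusted p under 0.05.

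Of 29 genes of IL-17 receptor signalling, inhibitors included, 28 were tested, 15 with higher and 13 with lower estimates, a median of 0.02 and none with an unadjusted p under 0.05. The adaptor Traf3ip2 (Act1) had 15.9 ± 3.01 CPM (SD, n = 5) in MR and 14.2 ± 4.50 CPM (SD, n = 4) in MXL. The most abundant members, Srsf1, Tab2 and Mapk14, had log2 fold changes of 0.05, 0.04 and 0.18. Medians between 0.00 and 0.07 were found on leaving out 1 library at a time.

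Genes that IL-17 is known to induce in skin depended on 1 library. Of 28 such genes 25 were tested, 8 with higher and 17 with lower estimates in FJDHF, and the median was -0.58. Without MXL12 there were 22 higher and 3 lower, and the median was 0.85, against -0.03 over all genes. The summed level of the 25 genes was 2333 CPM in MXL12 and 324 to 655 CPM in the other 8 libraries. Among them, Cxcl5, a neutrophil-attracting chemokine, had 96.8 CPM in MXL12 and at most 1.94 CPM elsewhere (log2 fold change -4.98 ± 1.80, SE; edgeR unadjusted p = 0.0194, and 0.96 without MXL12). Il19, a cytokine of the IL-20 group, had 10.5 CPM in MXL12 and at most 0.335 CPM elsewhere (log2 fold change -4.48 ± 1.64, SE; unadjusted p = 0.0205, and -0.43 without MXL12). The library with these values had 0 counts of Il17a and 11 of Il17f, and its neutrophil marker sum of 532.7 CPM was the highest. S100a8 and S100a9 stand on both lists. The part of neutrophils in these levels was not tested.

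**Figure D4:**
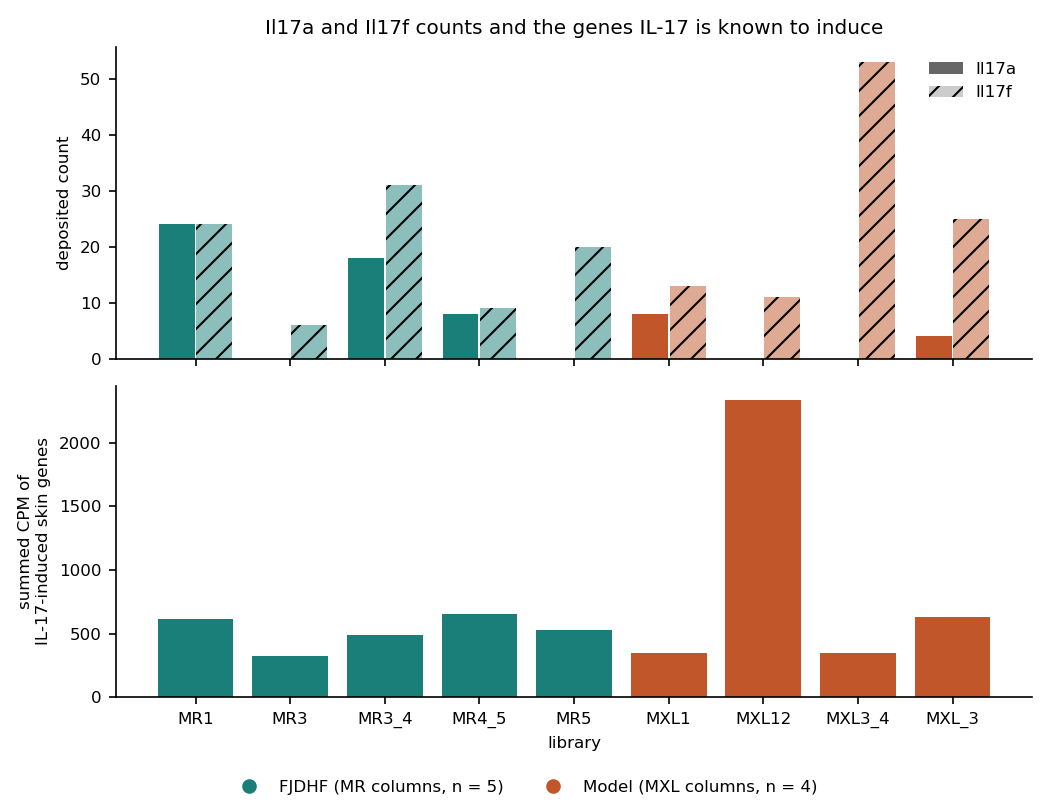
Deposited counts of Il17a (plain bars) and Il17f (hatched bars) above the summed CPM of the 25 tested IL-17-induced skin genes, by library, with colours for MR (FJDHF) and MXL (Model). MXL12 has the highest target sum (2333 CPM) with 0 counts of Il17a and 11 of Il17f, whereas MXL3_4 has the highest Il17f count (53) and a target sum of 347 CPM.

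Of the 25 genes, 2 higher and 3 lower in FJDHF had an unadjusted p under 0.05, against 1.57% of all genes in either direction. Both that were higher had larger estimates without MXL12, and none that was lower had an unadjusted p under 0.05 without it. Without MXL12, 6 higher and 0 lower genes of the list had an edgeR unadjusted p under 0.05. Among all genes 380 had one in that fit, against 326 (1.57%) with all 9 libraries. The list was read without MXL12 after the values of that library were seen. Il36a, an epidermal cytokine of the IL-1 family listed under its older name Il1f6, had 99.9, 21.1, 71.4, 81.0 and 60.6 CPM in MR1, MR3, MR3_4, MR4_5 and MR5, and 18, 27.3, 21.5 and 11.1 CPM in MXL1, MXL12, MXL3_4 and MXL_3. All MR libraries except MR3 were above all MXL libraries (log2 fold change 1.78 ± 0.42, SE; edgeR unadjusted p = 0.00158, adjusted p = 1), and MR3 lay within the MXL range. The estimate was 1.98 without MXL12. Il36g, listed as Il1f9, had 92.5 ± 26.0 CPM (SD, n = 5) in MR and 53.5 ± 20.9 CPM (SD, n = 4) in MXL (log2 fold change 0.79 ± 0.32, SE; edgeR unadjusted p = 0.0311, adjusted p = 1), and 1.03 without MXL12. The differentiated keratinocyte markers moved the same way, with Krt1 at a log2 fold change of 1.48 and Krt10 at 1.23, and their part in the levels of Il36a and Il36g was not tested. Mmp3, a matrix-degrading enzyme of fibroblasts, was at 173.5 ± 55.3 CPM in MR (SD, n = 5) and at 324.9 ± 179.6 CPM in MXL (SD, n = 4) (log2 fold change -0.91 ± 0.38, SE; edgeR unadjusted p = 0.0375, adjusted p = 1), and -0.63 without MXL12. Fibroblast markers, with a median of -0.42, moved the same way, and their part in the level of Mmp3 was not tested. By mean FPKM S100a9 came second on the list after Mmp3, with 256.3 CPM in MXL12 and a log2 fold change of -1.15 that was 1.26 without MXL12.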

How the data were processed

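Back skin RNA was measured in 9 polyadenylated, strand-specific paired-end libraries. The authors deposited whole-number counts for 55401 genes and FPKM for 34637 of them. Per the labels, HISAT, StringTie, DESeq2 and the mm10 build were used, while versions, annotation and counting settings are not given in the sources used here. Deposited FPKM correspond to the summed exon length in GENCODE M21 times 1.05. The table also repeats the counts in 9 columns of per-library values, which were not used. Codes such as MR3_4 and MXL12 could mark pooled mice, so n counts libraries, and p-values measure the spread between libraries.

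edgeR 4.0.16 under R 4.3.3 was run on the counts, with low counts removed by filterByExpr, TMM factors, the quasi-likelihood test and Benjamini-Hochberg adjustment over the 20817 genes left. Called meant an adjusted p under 0.05 and at least a 2-fold change. CPM used TMM-scaled sizes. Single levels used an exact two-sided permutation test of log2(CPM + 0.5), and intervals came from limma 3.58.1. GC content came from the longest coding transcript of genes over 1 CPM. The steps were tested on simulated data. Genes named are the 10 members, list genes with an unadjusted p under 0.05, the 3 most abundant of each list and the 3 most similar to each member, of which 1 is not reported here. Traf3ip2, the γ constant regions, Il22, Krt1, Krt10, Mmp8, Ccr7, Thy1 and Cd3e were added after their values were seen. Members and lists were chosen with earlier results of these data known.

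Alternatives were DESeq2 1.42.0 (Wald test, or its size factors in edgeR), limma on log2(FPKM + 1), log2(FPKM + 0.1) and log2(CPM + 0.5), no filter, at least 10 counts in every library, each library left out, a replicate block, and for single levels a pseudocount of 0.1, FPKM, total counts and centring on genes of like GC content. The limma fit on CPM, the length per coding transcript, the list medians without MXL12 and the GC centring, also without MXL1, were chosen after seeing the data.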

Additional observations from a re-analysis of the deposited data

Results flagged for a closer look

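Dixon's ratio, the gap of an extreme library to its nearest neighbour over the range of its group, was tested on log2(CPM + 0.5) for members with more than 3 counts in at least 1 library of the group, in 18 combinations of member and group. Chance flags about 1 group in 20 where values are spread normally, which groups with several libraries at 0 counts are not. Il17rc in MXL1 stood apart from the other 3 MXL libraries, with a ratio of 0.834. Il17b in MXL1, the only library with reads of that ligand, had a ratio of 1, as any count does when the rest of the group is at 0. Il17c in MR3_4, with 8 counts, had a ratio of 0.755 among the 5 MR libraries. MR3 had 2 counts and the remaining MR libraries 0, so that ratio also rests on counts at the floor.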

How the results depend on the processing

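No member was called, under any alternative run. None had an exact permutation p under 0.05, except Il17rc with MXL1 left out and GC centring together (p = 0.0357). Over all genes, DESeq2's Wald test called 2, neither of them a member, and the other tools and filters called 0. Genes with an unadjusted p under 0.05 numbered 326, or 905 without the filter, and 217 (without MR4_5) to 734 (without MXL1) on leaving out 1 library. The receptor chains changed sign around 0. The log2 fold change of Il17ra was -0.0095 with DESeq2's size factors, -0.0094 with its Wald test and -0.0098 with limma on CPM. That of Il17rc was 0.062, 0.145 and 0.11 with limma on log2(FPKM + 1), log2(FPKM + 0.1) and log2(CPM + 0.5). That of Il17re was 0.016, 0.030 and 0.0012 in these fits, and 0.0044 with at least 10 counts in every library. On leaving out 1 library, log2 fold changes ranged from -0.81 to 0.12 for Il17f, -0.077 to 0.085 for Il17ra, -0.62 to 0.83 for Il17rc, -0.010 to 0.16 for Il17rd and -0.19 to 0.28 for Il17re. Differences in mean log2(CPM + 0.5) then ranged from -0.27 to 0.026, -0.064 to 0.085, -0.19 to 0.73, -0.022 to 0.17 and -0.19 to 0.23 for the same genes. The difference in Il17ra was 0.017 on log2(FPKM + 0.1) and 0.016 with total counts, and that in Il17re was -0.086 after GC centring. These causes were not tested. In the order of levels, 0 to 2 members changed place on leaving out 1 library, and 2 did per coding transcript length.

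Column codes of the groups share the numbers 1, 3 and 3_4. Deviations of same-numbered libraries correlated at 0.225, 0.118 and -0.219, so the numbers were not taken as pairs. With the replicate block on these 6 libraries, 0 genes were called and 256 had an unadjusted p under 0.05 (292 without the block), and the log2 fold change of Il17rc was 0.074.

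Il17b and Il17c were at 3 counts or fewer in 8 libraries each, Il23a in 5 and Il17a in 4, and small differences in them were not detectable at this depth. Il17b gave no estimate without MXL1, and GC centring was not run on members with 3 counts or fewer in a library.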

Other observations

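Il23a was at 0 counts in 5 libraries and at 22 to 55 in the other 4, at a mean of 20.1 counts. Of 3497 genes with a mean of 10 to 40 counts, 19 (0.543%), Il23a among them, were at 0 in at least 4 libraries and at 20 or more in each library where they were found. These limits were set after the counts of Il23a were seen, so the share is a description.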
